A study of Mus musculus with 12 samples.

Results

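The Ras family small GTPases described here are 9 genes of mouse embryonic stem cells, Hras, Nras, Rras, Rras2, Mras, Eras, Rala, Ralb and Rheb. They were found by symbol in the gene count files, where all 9 of 9 listed symbols were present among 52535 gene entries, and all 9 passed the filter on low counts. The cells were E14, a mouse embryonic stem cell line, grown with serum, the cytokine LIF and the kinase inhibitor pair 2i. The libraries used were 2 of E14 cells labelled WT and 2 each of clone 1 and clone 2 of E14 cells with the genotype Bcat1-KO, all in the same medium and with no other allele or agent in their labels. Each knockout group is 1 clone, the labels do not say how the knockout was made, and whether replicates are separate cultures is not said. The p-values of the clone comparisons therefore rest on library-to-library spread that may be technical. Those across both clones rest on a spread that also takes in the difference between the clones. The other 6 samples of the series, cells before and after 7 days without 2i and LIF, were not analysed here.

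Ras proteins are molecular switches that are on when bound to GTP and off when bound to GDP. Exchange factors turn them on, GTPase-activating proteins turn them off, and in the on state a short effector-binding loop docks onto kinases and other partners. In embryonic stem cells, signalling from Ras to the kinase ERK drives exit from self-renewal, and 2i contains a drug that blocks the step before ERK. Hras and Nras are classical Ras proteins, Rras, Rras2 and Mras form the R-Ras branch, Eras is a form known from embryonic stem cells that signals to PI3 kinase, Rala and Ralb control vesicle delivery through the exocyst, and Rheb turns on the growth kinase mTORC1. The series title links Bcat1, the cytosolic enzyme that begins the breakdown of branched-chain amino acids, to Ras signalling.

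The coding bases of the effector-binding loop are shown because they mark what joins and separates 8 of the genes, and because reads can be counted for each gene only where the genes differ. Each line gives 9 codons (27 bases, 5′ to 3′) of the coding transcript with the longest reading frame in GENCODE M21, with capitals at bases that differ from Hras.
Hras: tatgatcccactatagaggactcctac
Rras: tatgatcccacCatTgaAgaTtcctac
Rras2: tatgatccAacCatTgaAgactcAtac
Mras: taCgaCcccacCatTgaAgactcctac
Eras: CatgaCcccactatCCaAgaTtcctac
Rala: tatgaAccTacCaAagCggacAGctac
Ralb: tatgaGcccacCaAagCTgacAGTtac
Rheb: taCgatccAacCatagagAacAcGtTc
The loop differed from Hras by 4 bases in Rras, 5 in Rras2, 5 in Mras, 6 in Eras, 7 in Rala, 8 in Ralb and 7 in Rheb. In Rras, Rras2 and Mras 0 of the 9 codons coded for another residue than in Hras, against 2 codons in Eras and 3 each in Rala, Ralb and Rheb. The bases thus differ between these 8 genes while the protein loop is shared by Hras and the R-Ras branch. Over whole transcripts, 0% of all runs of 50 bases of Hras, Rras, Rras2, Mras, Rala and Ralb occurred in transcripts of another gene. The share was 0.733% in Nras and 0.235% in Rheb. It was 8.37% in Eras, all of it antisense to Pcsk1n, a gene on the opposite strand that overlaps 12.5% of the exonic bases of Eras. The strand setting of the counting is not given in the sources used here, so reads of Eras and Pcsk1n in that stretch may not be told apart.

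Gene counts per library ranged from 11976149 to 13923262. All 10 markers of embryonic stem cells were tested, each with 210 counts per 1000000 assigned reads (CPM) or more in all 6 libraries, which fits the label of the cells. Mean Bcat1 RNA was 608 CPM in WT (SD 8.35, n = 2), 639 in clone 1 (SD 31.9) and 581 in clone 2 (SD 2.38), with no difference called across both clones (log2 fold change 0.01, adjusted p = 0.977 by edgeR). The labels do not say how Bcat1 was altered, so that level does not check the knockout. Both clones together are therefore called the libraries labelled knockout. Of the stem cell markers 0 were called across both clones, while Klf4, Sox2 and Dppa5a were called lower in clone 1, and Tdgf1 and Sox2 lower in clone 2, each call being lost in 1 to 6 of 13 alternatives. Markers of other cell types were low, with sums in WT of 23.7 and 23.9 CPM over 9 fibroblast genes, 13.4 and 16.5 over 8 primitive endoderm genes and 46.3 and 40.9 over 7 trophectoderm genes. The fibroblast sum was 33.5 and 32.1 CPM in clone 1, with 21.0 and 20.7 in clone 2, with Postn, Dcn, Lum and Acta2 at 0 in all libraries. The endoderm sum was 14.2 and 13.1 in clone 1, then 6.67 and 9.02 in clone 2, and the trophectoderm sum 28.3 and 32.8 in clone 1, with 28.0 and 28.7 in clone 2, with no gene of these lists at 0 throughout. Across both clones Col1a2 was called higher (adjusted p = 0.0120 by edgeR), and Hnf4a (0.0483) and Cdx2 (0.00355) lower. Col1a2 was near the floor, with 0 and 1 reads in WT and 11 to 22 in the libraries labelled knockout. Cdx2 had 28.9 and 22.3 CPM in WT and 1.46 to 6.33 in the libraries labelled knockout, and Hnf4a 10.96 and 11.97 in WT and 1.74 to 5.55. Other genes of the endoderm and trophectoderm lists went the other way from Hnf4a and Cdx2. Eomes, Krt7 and Gata4 were called higher in clone 1, and Tfap2a and Dab2 higher in clone 2. In the fibroblast list Thy1 was called higher in clone 1. Of these 6 calls, that of Eomes was kept in all 13 alternatives and the other 5 were lost in 3 to 5. Between the clones, Thy1 (log2 fold change -1.88, adjusted p = 0.00095 by edgeR), Hnf4a (-1.60, 5.83e-04) and Eomes (-0.85, 0.00229) were called lower in clone 2. Pdgfrb (-0.48, 0.0208) and Tdgf1 (-0.36, 0.00632) were lower there too. Cdx2 (1.38, 0.00893), Tfap2a (0.99, 0.00644) and Klf4 (0.37, 0.0129) were higher. The calls of Thy1, Hnf4a and Eomes between the clones were kept in all 13 alternatives, and the others were lost in 1 to 3. The part of these markers in the results below was not tested.

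Mras was the member that rose in both clones. Mras, an R-Ras branch GTPase that recruits the SHOC2 phosphatase complex acting on Raf kinases, had 31.6 and 30.8 CPM in the WT libraries, 55.3 and 51.5 in clone 1, then 70.3 and 66.0 in clone 2. All 4 libraries labelled knockout lay above both WT libraries, and both clone 2 libraries lay above both of clone 1. In bulk RNA, more cells with a transcript and more transcript per cell cannot be told apart. In counts, 827 reads in WT stood against 1368 in clone 1 and 1667 in clone 2. Across both clones the log2 fold change was 0.96 ± 0.14 (SE), 1.95-fold, with an adjusted p of 0.00492 by edgeR's quasi-likelihood test. The call was lost without WT replicate 1 (adjusted p = 0.102 by edgeR) or WT replicate 2 (0.106), when 1 WT library was left, while the fold change stayed at 0.98 and 0.94. Each clone compared with WT on its own passed the edgeR test, at 0.77 ± 0.11 (SE) in clone 1 (adjusted p = 5.77e-05) and 1.13 ± 0.11 in clone 2 (adjusted p = 9.97e-07). Both clone comparisons share the WT libraries. They kept the call under all 13 alternatives tried for each, with a highest adjusted p of 0.00439 in clone 1 and 3.55e-04 in clone 2.

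**Figure D1:**
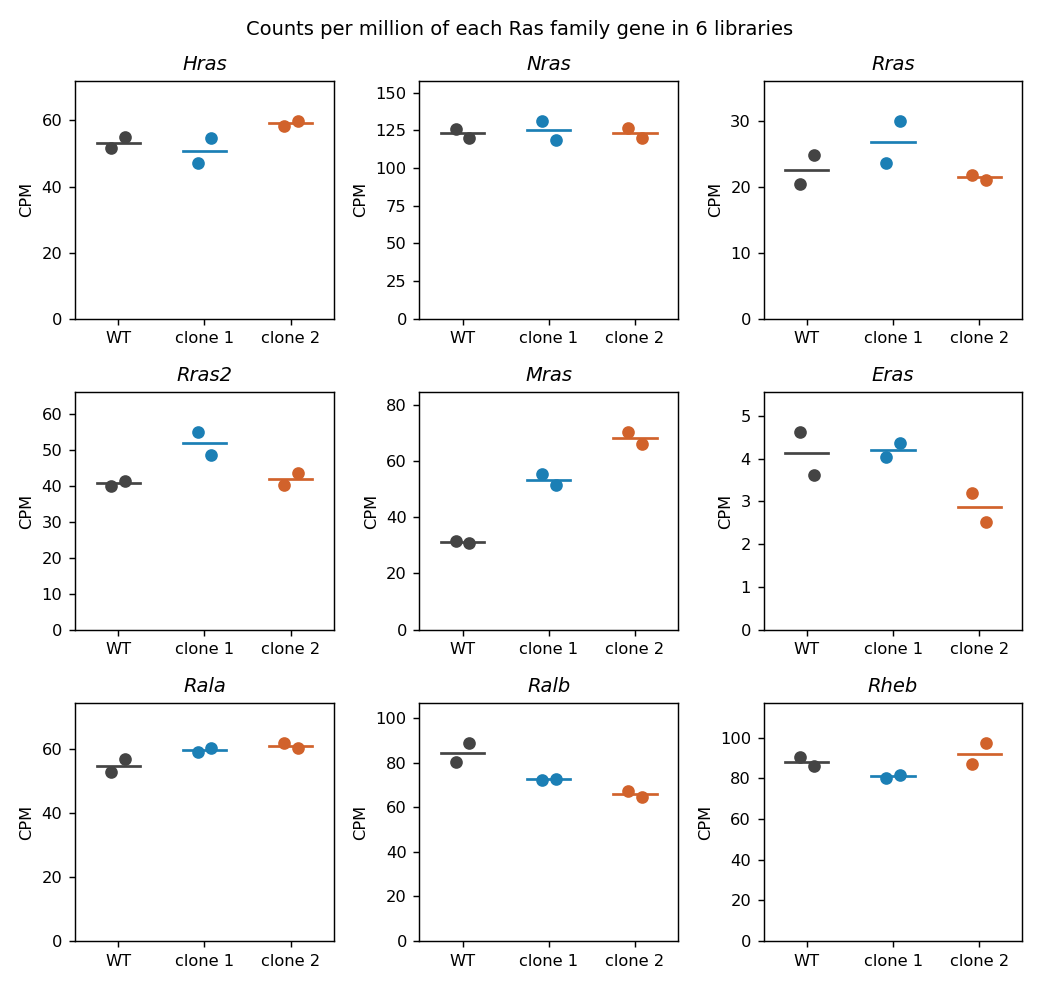
CPM (y axis, from 0, a scale of its own for each gene) of the 9 genes in WT, clone 1 and clone 2; points are the 2 libraries of a group and bars their mean. Mras lies at 30.8 to 31.6 in WT and at 51.5 to 70.3 in the libraries labelled knockout, while in Hras, Nras, Rras, Rras2, Eras and Rheb the range of the 4 libraries labelled knockout overlaps that of WT.

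The clones also differed from each other in Mras. Clone 2 was higher than clone 1 by 0.35 ± 0.10 on the log2 scale (SE), 1.28-fold, with an adjusted p of 0.0271 by edgeR. That call was close to the threshold, with adjusted p = 0.0531 under upper-quartile scaling, 0.0505 by DESeq2, and 0.0504 without WT replicate 2. Leaving out 1 clone 2 library gave 0.247 (replicate 1) and 0.103 (replicate 2). The direction was the same in all 13 alternatives, from 0.30 to 0.41.

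Across the family, 1 of 9 members was called higher and 0 lower in both clones together, where 4.25% of 14946 genes tested were called higher and 2.11% lower by edgeR (6.36% either way). At an unadjusted p under 0.05 there were 1 higher and 1 lower, and DESeq2 called 1 higher and 0 lower. The median log2 fold change of the members was 0.05, beside 0.0045 for all genes tested. In clone 1, 2 of 9 members rose and 0 fell (12.4% and 9.53% of all genes, 21.9% either way), with 1 lower at an unadjusted p under 0.05 and 0 lower by DESeq2. Of all calls in clone 1, 1856 of 3280 were higher, or 2126 of 3169 with upper-quartile scaling. In clone 2, 1 rose and 1 fell (10.1% and 7.81%, 17.9% either way). Between the clones, 1 was higher and 0 lower in clone 2 (6.62% and 7.71%, 14.3% either way), with 2 lower at an unadjusted p under 0.05 and 0 called by DESeq2. By CPM alone, the libraries labelled knockout did not overlap WT in 3 of 9 members, 2 above (Mras and Rala) and 1 below (Ralb), against 18.3% above, 16.7% below and 35.0% either way of all genes tested. The members' share is near that background.

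**Figure D2:**
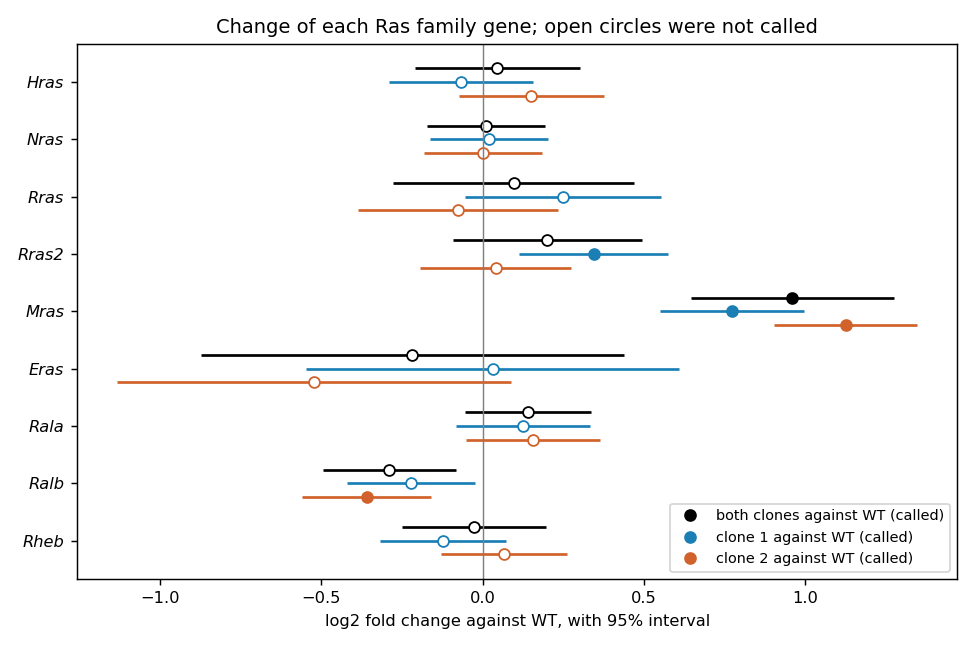
Log2 fold change against WT (x axis) with its 95% interval for each gene, in both clones together (black), clone 1 (blue) and clone 2 (orange); filled circles passed the test at an adjusted p under 0.05. Mras is filled in all 3 comparisons, Rras2 in clone 1 and Ralb in clone 2.

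Neither classical Ras gene was called in any of the 4 comparisons. Nras, the most read of the 9, had 126 and 120.1 CPM in WT, 131 and 118 in clone 1, with 127 and 119.6 in clone 2. The groups overlapped, and the log2 fold change across both clones was 0.01 with a 95% interval of -0.17 to 0.19. Hras had 51.5 and 55.0 CPM in WT, 47.0 and 54.6 in clone 1, then 58.3 and 59.9 in clone 2. Both clone 2 libraries were the highest, but the difference between clones of 0.22 ± 0.11 (log2, SE) was not called (adjusted p = 0.193 by edgeR). It was called without clone 1 replicate 2, at 0.33 (adjusted p = 0.0268). For Hras the interval across both clones ran from -0.21 to 0.30. A difference of Nras or Hras RNA within these intervals is not excluded by these libraries. The intervals are unadjusted for the number of genes tested, so they do not mark the smallest difference that the test could call.

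The other R-Ras branch genes had smaller fold changes than Mras across both clones, and neither was called there. Rras2, also known as TC21, had 40.0 and 41.4 CPM in WT, 55.0 and 48.5 in clone 1, with 40.1 and 43.6 in clone 2. Clone 1 lay above all other libraries while clone 2 overlapped WT. The rise in clone 1 was 0.35 ± 0.11 (log2, SE), 1.27-fold, with an adjusted p of 0.0318 by edgeR. It was not called by DESeq2 (adjusted p = 0.0695), in a fit of only the 4 libraries compared (0.0551), without WT replicate 1 (0.191), WT replicate 2 (0.129), clone 1 replicate 1 (0.129), clone 2 replicate 1 (0.0629) or clone 2 replicate 2 (0.0574). The difference between the clones, lower in clone 2 by 0.30 ± 0.11, was not called (adjusted p = 0.0754 by edgeR) but was with the replicate block (0.0350), with upper-quartile scaling (0.0445) and without clone 1 replicate 2 (0.00958). Rras, a regulator of integrin adhesion, had 20.4 and 24.8 CPM in WT, 23.7 and 30.1 in clone 1, then 21.9 and 21.1 in clone 2, and was not called across both clones, with an interval of -0.28 to 0.47. In clone 1 Rras had a log2 fold change of 0.25 ± 0.14, which was called only without clone 1 replicate 1 (adjusted p = 0.0323 by edgeR).

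Eras, on chromosome X, had the fewest reads of the 9, with 60 and 49 reads in WT, 51 and 57 in clone 1, with 38 and 32 in clone 2. In CPM these were 4.63 and 3.62, 4.04 and 4.37, and 3.21 and 2.53. Both clone 2 libraries were below the other 4, yet neither the difference from WT of -0.52 ± 0.29 (log2, SE) nor that from clone 1 of -0.55 ± 0.29 was called (adjusted p = 0.237 and 0.229 by edgeR). The interval across both clones, -0.87 to 0.44, was the widest of the 9 members. A difference of Eras RNA within that interval is not excluded at this depth.

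The Ral genes lay on opposite sides of WT, and neither was called across both clones. Ralb had 80.3 and 89.0 CPM in WT, 72.3 and 72.8 in clone 1, then 67.4 and 64.6 in clone 2, so that every library labelled knockout was below both WT libraries. Across both clones Ralb had a log2 fold change of -0.29 ± 0.09 (SE) with an adjusted p of 0.0968 by edgeR. It was called as the mean of both clone contrasts (adjusted p = 0.0160), a fit whose spread leaves out the difference between clones. In clone 2 alone Ralb fell by 0.36 ± 0.09 (adjusted p = 0.0137 by edgeR), a call lost without WT replicate 2 (0.173), clone 2 replicate 1 (0.0821) or clone 2 replicate 2 (0.156). In clone 1 Ralb had -0.22 ± 0.09 and was not called (adjusted p = 0.100), and the clones were not called different (adjusted p = 0.386). Rala had 52.8 and 56.8 CPM in WT, 59.1 and 60.4 in clone 1, with 62.0 and 60.3 in clone 2. All 4 libraries labelled knockout were above WT, with a log2 fold change of 0.14 ± 0.09 that was not called (adjusted p = 0.374), and an interval of -0.05 to 0.34.

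Rheb had 90.4 and 86 CPM in WT, 80.2 and 81.7 in clone 1, then 87.1 and 97.5 in clone 2. Clone 1 was lowest and clone 2 overlapped WT. No comparison of Rheb was called, and the interval across both clones was -0.25 to 0.20.

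Levels between genes were compared per kilobase of exon (RPKM) in the union of a gene's exons. In WT the order was Nras at 23.1 ± 0.791 RPKM (SD, n = 2), Rras at 20.2 ± 2.76, Rala at 18.9 ± 0.983, Ralb at 17.2 ± 1.25, Hras at 14.3 ± 0.647, Rras2 at 11.4 ± 0.263, Rheb at 11.4 ± 0.407, Mras at 6.08 ± 0.114 and Eras at 3.83 ± 0.663. The WT libraries of Rras overlapped those of Rala and those of Rras2 overlapped those of Rheb, so these neighbours were not separated by their spread. Nras lay above 82.5% of 14549 tested genes with a known length, Mras above 54.5% and Eras above 44.6%. With the length of the longest coding transcript in place of the union, Rheb came first at 49.4 RPKM and Ralb was in place 2 at 37.0, while Mras and Eras stayed in places 8 and 9. In clone 2 Mras reached 13.3 ± 0.604 RPKM and place 6 by the union length. Its part of the summed RPKM of the 9 genes was 4.98% and 4.64% in WT, 8.04% and 7.29% in clone 1, reaching 10.3% and 9.78% in clone 2. The sum itself was 124 and 129 in WT and 131 to 138 in the libraries labelled knockout. Places in the clones, parts and sums were worked out with the union length only, and may differ with the transcript length.

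**Figure D3:**
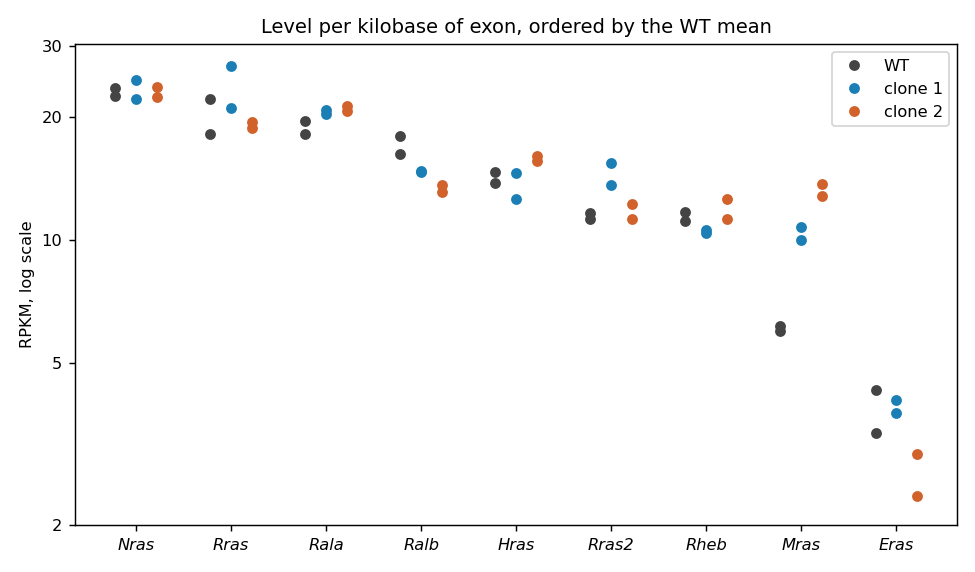
RPKM (y axis, log scale) of the 9 genes in each library, ordered from left by the WT mean with the union of exons as length; grey is WT, blue clone 1 and orange clone 2. Mras moves from a mean of 6.08 in WT to means of 10.4 in clone 1 and 13.3 in clone 2, by this length into the range of Rheb and Rras2. With the length of the longest coding transcript, WT levels were 6.64 for Mras, 17.9 for Rras2 and 49.4 for Rheb, and the clones were not compared.

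Mras (chromosome 9, 99385420 to 99437381, minus strand, GRCm38) has 9 exon blocks and overlaps no exon of another gene. Its nearest tested genes are Esyt3, which encodes a membrane tether of the endoplasmic reticulum, and Armc8. Esyt3 had 6.17 and 6.20 CPM in WT, 12.8 and 14.6 in clone 1, with 11.1 and 9.41 in clone 2, and rose by 0.95 ± 0.22 (log2, SE) with an adjusted p of 0.0331 by edgeR. The call of Esyt3 was lost without WT replicate 1 (adjusted p = 0.270), WT replicate 2 (0.247) or clone 1 replicate 2 (0.0530) and with the replicate block (0.0666). Armc8 was not called, at 0.01 ± 0.09. Unlike Mras, Esyt3 was higher in clone 1 than in clone 2 in these libraries, a difference that was not called (-0.42 ± 0.18, adjusted p = 0.132). Of 16 tested genes that start within 1 Mb of Mras, 1 was called higher and 0 lower, and their median log2 fold change was 0.01. Ralb (chromosome 1, 119470305 to 119504794, minus strand) has a called neighbour too, Inhbb, an activin and inhibin subunit, which fell by 0.74 ± 0.16 (adjusted p = 0.0278). That call was lost without WT replicate 1 (adjusted p = 0.217) or WT replicate 2 (0.247) and with the replicate block (0.0508). Of the other 16 nearest neighbours of members none was called across both clones by edgeR. In clone 1, Yae1d1 beside Rala (0.51 ± 0.16, adjusted p = 0.0296 by edgeR) and Wdr86 beside Rheb (1.45 ± 0.48, 0.0376) were called higher. In clone 2, Hdac6 beside Eras was called higher (0.31 ± 0.08, 0.0146) and Dennd2c beside Nras lower (-0.32 ± 0.10, 0.0443). Hdac6 was also called higher in clone 2 than in clone 1 (0.32 ± 0.08, 0.01695). How these calls fared under the alternatives is not given here.

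**Figure D4:**
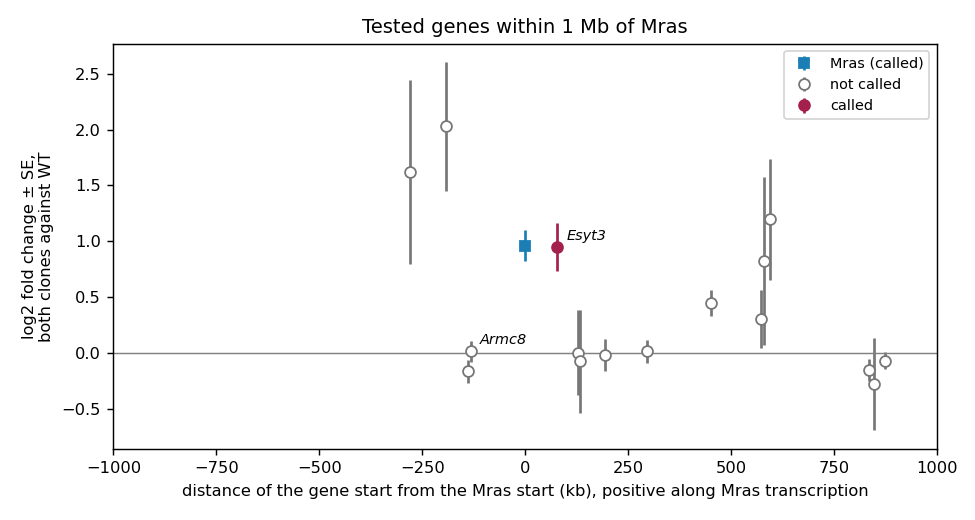
Log2 fold change with its SE (y axis) of tested genes by the distance of their start from the Mras start (x axis, kb, positive along Mras transcription). Mras at 0.96 and Esyt3 at 0.95 are the called genes, and most others lie near 0 or have wide errors.

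The genes most like Mras over the 6 libraries, by Pearson r of log2 CPM among 10003 genes of mean CPM of 5 or more, were Nucb2 (r = 0.998), Nefl (0.998) and Magea4 (0.997). Nefl, a neurofilament subunit, had 5.25 and 5.39 CPM in WT, 15.0 and 13.7 in clone 1, then 23.6 and 23.3 in clone 2. Magea4, a germline antigen gene, went from 1.77 and 1.92 CPM in WT to 13.96 and 11.4 in clone 1, with 26.6 and 25.9 in clone 2. Nucb2, at 0.78 ± 0.23 (log2, SE), missed the threshold (adjusted p = 0.0778 by edgeR). The 6 points fall in 3 groups, and 211 of the genes had an r above 0.95 with Mras.

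Of 103 listed genes that act with these GTPases, 88 were tested and 7 rose across both clones while 0 fell. That is 7.95% called, against 4.25% of all genes called higher, 2.11% lower and 6.36% either way. The median log2 fold change of the 88 was 0.10, beside 0.0045 for all genes tested. Without WT replicate 1 or WT replicate 2, 0 of these calls remained, and the highest adjusted p over all alternatives ranged from 0.0770 for Rasal1 to 0.359 for Sos1. In clone 1, 15 of the 88 rose and 4 fell (21.6%, against 21.9% of all genes), in clone 2, 10 rose and 3 fell (14.8% against 17.9%), and between the clones 5 were higher in clone 2 and 4 lower (10.2% against 14.3%). Of these calls, 8 of 19 in clone 1, 6 of 13 in clone 2 and 3 of 9 between the clones were kept in all 13 alternatives.

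Exchange factors, which load the GTPases with GTP, had 2 rises and 0 falls among 9 tested, with a list median of 0.26. Sos2 had 5.01 and 3.91 CPM in WT, 13.8 and 11.4 in clone 1, then 10.1 and 9.41 in clone 2, and its paralog Sos1 48.1 and 52.4, 66.7 and 62.4, and 71.4 and 66.4. For both genes all 4 libraries labelled knockout were above WT. Sos2 rose by 1.33 ± 0.23 (log2, SE; adjusted p = 0.0111 by edgeR) and Sos1 by 0.41 ± 0.10 (adjusted p = 0.0365). Ralgds, an exchange factor for Ral, was called lower in clone 1 (-0.40 ± 0.14, adjusted p = 0.0439), a call lost in 9 of 13 alternatives, by DESeq2 (0.117) among them. With the replicate block Sos1 had an adjusted p of 0.0611 by edgeR, and with 1 clone 2 library left out it had 0.0812 (replicate 1) or 0.0654 (replicate 2).

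GTPase-activating proteins, which switch the GTPases off, likewise had 2 rises and 0 falls, among 12 tested with a list median of 0.18. Rasal1 had 7.48 and 6.13 CPM in WT, 15.1 and 18.3 in clone 1, with 19.0 and 19.8 in clone 2, a rise of 1.41 ± 0.18 (log2, SE) with an adjusted p of 0.00293 by edgeR. Rasa4, of the same calcium-responsive group, had 37.6 and 38.7 CPM in WT and 51.5 to 58.0 in the libraries labelled knockout, a rise of 0.51 ± 0.10 (log2, SE) with an adjusted p of 0.0154 by edgeR. In clone 1, Rasa3 (0.72 ± 0.17, adjusted p = 0.00517) and the Ral regulator Ralgapa2 (0.39 ± 0.12, adjusted p = 0.0301) were called higher too. The first was lost without WT replicate 2 (0.0866) and the other in 4 alternatives (up to 0.176). Genes of both roles, turning Ras on and turning it off, thus rose in the same libraries.

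Effectors of Ras, Rras and Mras had 2 rises and 0 falls among 16 tested, with a list median of 0.12. Afdn, a junction protein that binds Ras, had 105 and 113 CPM in WT and 160 to 184 in the libraries labelled knockout, a rise of 0.64 ± 0.09 (log2, SE) with an adjusted p of 0.00381 by edgeR. Pik3cd, a catalytic subunit of PI3 kinase, had 13.2 and 12.2 CPM in WT and 17.4 to 23.2 in the libraries labelled knockout, a rise of 0.66 ± 0.16 (adjusted p = 0.0424). With the replicate block Pik3cd had an adjusted p of 0.0758, and with 1 clone 1 library left out it had 0.0593 (replicate 1) or 0.0644 (replicate 2).

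Plce1, a phospholipase C that binds Ras, changed in opposite directions in the clones. It had 6.33 and 5.69 CPM in WT, 13.2 and 12.1 in clone 1, against 2.03 and 2.53 in clone 2, with no overlap between the 3 groups. Plce1 rose by 1.07 ± 0.20 (log2, SE) in clone 1 (adjusted p = 0.00103 by edgeR) and fell by 1.39 ± 0.25 in clone 2 (adjusted p = 8.31e-04). The clones differed 5.51-fold (adjusted p = 2.25e-06), and these 3 calls were kept in all 13 alternatives. Tiam1, an exchange factor for Rac that Ras binds, rose in clone 2 (0.56 ± 0.10, adjusted p = 7.66e-04), also in all 13. In clone 1 Tiam1 had 0.27 ± 0.10 and was not called (adjusted p = 0.0618 by edgeR). Across both clones Tiam1 was not called by edgeR (0.43 ± 0.12, adjusted p = 0.0724) but was by DESeq2. Ppp1cc, a phosphatase subunit, was called higher in clone 2 than in clone 1 (0.23 ± 0.08, adjusted p = 0.0461), a call lost in 7 alternatives.

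Effectors of Ral had 1 rise and 0 falls among 12 tested, with a list median of 0.11. Exoc6b, an exocyst subunit, went from 78.8 and 70.5 CPM in WT to 93.2 to 107 in the libraries labelled knockout, a rise of 0.42 ± 0.09 (log2, SE) with an adjusted p of 0.0289 by edgeR. The call rested on both clone 2 libraries too, with adjusted p = 0.0642 when replicate 1 was left out and 0.0509 when replicate 2 was. Exoc7, another exocyst subunit, fell by 0.51 ± 0.12 in clone 1 (adjusted p = 0.00487 by edgeR; 0.0544 without WT replicate 1) and was called higher in clone 2 than in clone 1 (0.39 ± 0.12, adjusted p = 0.0339), the latter lost in 7 alternatives. Reps1, a partner of a Ral effector, was called higher in clone 1 (0.38 ± 0.10, adjusted p = 0.0158) and clone 2 (0.36 ± 0.10, adjusted p = 0.0239), with the calls lost in 2 and 4 alternatives, among them leaving out either WT library. Across both clones Reps1 was not called by edgeR (0.37 ± 0.10, adjusted p = 0.0528) but was by DESeq2.

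In the remaining lists 0 genes were called across both clones by edgeR, and 1 by DESeq2 (Rasl10b). At an unadjusted p under 0.05 there were 1 higher and 1 lower among the lipid enzymes, 0 among the mTORC1 genes and 3 higher and 1 lower among the other GTPases. Enzymes that attach lipids to Ras or deliver it to membranes had 13 tested members, and the smallest p was that of Lypla2, a thioesterase, with a log2 fold change of -0.27 ± 0.11 (adjusted p = 0.187). Lypla2 was called lower in clone 2 (-0.34 ± 0.11, adjusted p = 0.0476), a call lost in 5 alternatives. Fntb, the beta subunit of farnesyltransferase, had 93.6 and 97.7 CPM in WT, 69.2 and 68.7 in clone 1, against 94.6 and 92.8 in clone 2. Clone 1 lay below all other libraries, and Fntb fell there by 0.47 ± 0.09 (adjusted p = 0.00105 by edgeR), in all 13 alternatives. Icmt, which methylates the farnesylated end, had 57.6 and 60.5 CPM in WT, 51.1 and 50.1 in clone 1, against 79.9 and 75.6 in clone 2. It rose in clone 2 by 0.40 ± 0.10 (adjusted p = 0.00789 by edgeR), a call lost without WT replicate 1 (0.107), WT replicate 2 (0.0535) or clone 2 replicate 1 (0.133). Both were higher in clone 2 than in clone 1, Icmt by 0.62 ± 0.10 (adjusted p = 3.65e-04) and Fntb by 0.44 ± 0.09 (adjusted p = 0.00270; 0.0533 without clone 2 replicate 1). Rheb regulators and mTORC1 subunits had 8 tested members, all between -0.11 and 0.12 across both clones, and the smallest p was that of Deptor (adjusted p = 0.598). That range averages clones that differed in Akt1s1, an inhibitory subunit of mTORC1, with 60.0 and 64.9 CPM in WT, 36.5 and 48.2 in clone 1, against 74.7 and 77.3 in clone 2. Akt1s1 fell by 0.56 ± 0.12 in clone 1 (adjusted p = 0.00302 by edgeR; 0.0587 without WT replicate 2) and was higher in clone 2 than in clone 1 by 0.84 ± 0.12 (adjusted p = 1.56e-04), the latter in all 13 alternatives. Other Ras-related GTPases had 18 of 25 members tested, led by Rasl10b with 4 and 9 reads in WT, 46 and 38 in clone 1, then 18 and 14 in clone 2. Rasl10b had a log2 fold change of 2.21 ± 0.63 across both clones (adjusted p = 0.0706), was called higher in clone 1 (adjusted p = 5.95e-04) and lower in clone 2 than in clone 1 (adjusted p = 0.0413). That is the reverse of the order of the clones in Mras. The call between the clones was lost by DESeq2 (0.142) and without clone 1 replicate 1 (0.176), clone 2 replicate 1 (0.113) or clone 2 replicate 2 (0.258). Rasd1, Rap2a and Rap2c were also called higher in clone 1 (adjusted p of 0.0110, 0.0130 and 0.0412), the calls being lost in 2, 2 and 8 alternatives. Rerg fell by 1.32 ± 0.22 in clone 2 (adjusted p = 4.40e-04), in all 13 alternatives. Rerg and Rasl11b were lower in clone 2 than in clone 1 (adjusted p of 0.0107 and 0.0199), each call being lost in 2 alternatives.

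**Figure D5:**
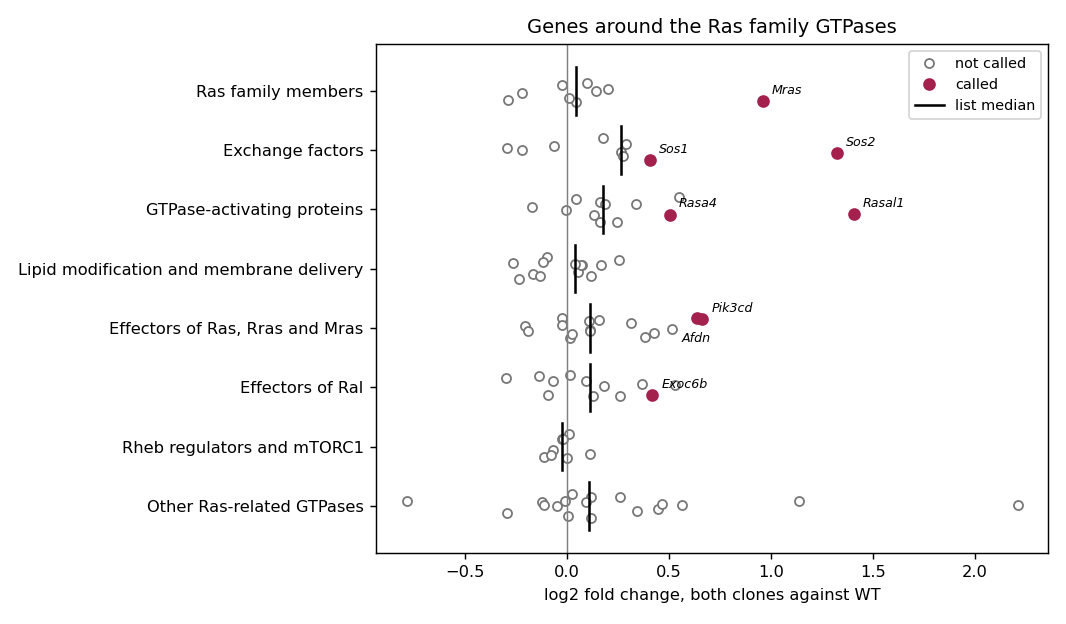
Log2 fold change across both clones (x axis) of each tested gene, by list (rows); filled points passed the test, open points did not, and black bars are list medians. The filled points, Mras, Sos1, Sos2, Rasal1, Rasa4, Afdn, Pik3cd and Exoc6b, all lie above 0.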

How the data were processed

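The deposited files hold counts of reads per gene symbol, not normalised, 1 file per library; per the labels' protocols total RNA was depleted of ribosomal RNA. Per the submitters' processing notes the tools were HISAT2 2.1.0 and HTSeq 0.9.1, with DESeq2 1.18.1 and the build mm10, and no roles are stated. The annotation, the strand setting and any filter were not given in the sources used here. The 5 HTSeq summary entries, 36.4% to 40.0% of entries' reads, were left out. Counts of both libraries of a group differed by more than sampling noise. The chi-square per gene was 3.57 in WT, 8.79 in clone 1 and 3.27 in clone 2.

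Tests used edgeR 4.0.16 in R 4.3.3: filterByExpr (14946 genes), TMM, the quasi-likelihood test (two-sided), and p-values adjusted over all genes (Benjamini-Hochberg) at 0.05. The genotype fit put both clones in 1 group, so its 4 libraries are not independent replicates; each clone was set against WT, and the clones against each other, in a second fit with 3 groups. CPM used TMM-scaled totals, and log2 CPM a prior count of 2. Intervals of 95% came from the fit's SE and degrees of freedom. Fits were tested, with an outcome not given here, on simulated data drawn at the spread fitted to these libraries. For the genotype fit these data gave both clones the same level, so they do not check its p-values where the clones differ. Alternatives were DESeq2 1.42.0, 2 other scalings, 2 filters, a replicate block, other models and leaving out each library; the gene length of RPKM was varied after seeing the data. Positions, lengths and sequences came from GENCODE M21 (GRCm38, the assembly of mm10); 1 sequence is not reported here.

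The members and lists were chosen with earlier results of these data known. Genes were named by rule: all members, up to 4 called genes of smallest p per list or, with none called, that of smallest p, the nearest tested gene on each side of a member, and the 3 genes of highest r to a called member, passing over predicted genes among the last 2 kinds. List and marker genes called in a clone comparison were named in addition, after their values were seen.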

Additional observations from a re-analysis of the deposited data

Results flagged for a closer look

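Mras differed between the clones under the same contrast with WT. Its log2 fold change was 0.77 ± 0.11 (SE) in clone 1 and 1.13 ± 0.11 in clone 2, and the test of the difference itself gave 0.35 ± 0.10 with an adjusted p of 0.0271 by edgeR. Both clone 2 libraries were above both clone 1 libraries, and the range of that adjusted p over the alternatives was 0.00579 to 0.247. Of the 9 members, 0 had a library among the 4 labelled knockout that stood apart from the others by Dixon's test. That test takes 4 libraries of 2 clones as like values. Where the clones differ, it can miss a library that departs from its own clone.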

How the results depend on the processing

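The number of members called across both clones was 1 in the main analysis, 2 as the mean of the clone contrasts, and 0 to 1 with each library left out. Leaving out WT replicate 1 or WT replicate 2 leaves 1 WT library, and the number of genes called overall then fell from 951 to 79 and 99. Keeping every gene with at least 1 count gave 1752 genes, and the mean of the clone contrasts gave 3226. Over all genes, clone 1 calls (3280) numbered 4410 with the replicate block, 2420 by DESeq2 and 2795 in a fit of the 4 libraries. They were fewer with 1 WT library left. In the fit of the 4 libraries clone 1 had fewer calls than clone 2, the reverse of the main analysis. Clone 2 calls (2674) ranged from 1165 without WT replicate 1 to 4191 without clone 1 replicate 2, with 4065 in a fit of the 4 libraries, and those between the clones (2141) from 974 without clone 2 replicate 1 to 3155 without clone 1 replicate 2. In clone 1 the number of members called was 2, against 1 by DESeq2, 1 in a fit of only the 4 libraries compared and 1 to 2 with each library left out. In clone 2 it was 2, and 1 to 2 with each library left out. Between the clones it was 1, against 0 by DESeq2, 2 with the replicate block and 0 to 3 with each library left out. Called pathway genes numbered 7, against 11 with no filter beyond 1 count, 17 as the mean of the clone contrasts and 0 to 6 with each library left out. The cause of these shifts was not tested.

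Signs turned only in members that were not called. Nras in clone 2 (0.0013) had -0.0025 with DESeq2's size factors and by DESeq2, -0.0016 with no filter beyond 1 count, -0.00046 at a mean CPM of 1 or more and -0.0048 in a fit of the 4 libraries. Rala between the clones (0.03) had -0.010 with upper-quartile scaling. With each library left out, values across both clones ran from -0.0015 to 0.11 for Hras, -0.025 to 0.044 for Nras, -0.039 to 0.24 for Rras and -0.089 to 0.0094 for Rheb. In clone 1 they ran from -0.18 to 0.035 for Hras, -0.058 to 0.093 for Nras and -0.14 to 0.21 for Eras. In clone 2 they ran from -0.050 to 0.045 for Nras, -0.21 to 0.073 for Rras, -0.020 to 0.090 for Rras2 and -0.017 to 0.14 for Rheb, and between the clones from -0.091 to 0.061 for Nras.

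With the length of the longest coding transcript, chosen after seeing the data, WT RPKM was 27.5 for Nras, 20.4 for Rala, 37.0 for Ralb, 18.8 for Hras, 17.9 for Rras2, 49.4 for Rheb and 6.64 for Mras. The longest transcript of Rheb is 1784 bases, against 7721 in its union of exons.

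Replicate numbers pair the groups only by number. Differences between replicates correlated across genes at 0.05 between WT and clone 1, -0.01 between WT and clone 2 and 0.13 between the clones. With the replicate block 646 genes were called across both clones, the Mras call was kept there (1 member called), and the members called in clone 1 and clone 2 numbered 2 and 2. Eras, at 32 to 60 reads a library, is the member most limited by depth.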
